A study of Homo sapiens with 8 samples.

Results

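The minichromosome maintenance (MCM) helicase and the factors that license replication origins were followed through the transcripts of 10 genes. They were the helicase subunits MCM2, MCM3, MCM4, MCM5, MCM6, and MCM7, the activation factor MCM10, the loading factors CDT1 and CDC6, and the licensing inhibitor GMNN, which encodes geminin. The genes were taken by their Ensembl identifiers from the 60230 genes of the count table, and all 10 passed the filter on low counts that left 13404 genes for testing. RNA came from HepG2, an established human liver cancer line, in a derivative that overexpresses the drug-metabolizing enzyme CYP3A4 and was kept in medium with blasticidin. All 8 samples, controls included, came from this derivative, and the promoter of its transgene is not given in the sources used here. Control cells received DMSO at 0.2%, and treated cells received compound 4, 5, or 6, each at its own IC50, so that the doses differed between compounds. All 3 compounds are bisphenolic antioxidants of plastic. The sample labels call compound 4 metylcresol, compound 5 tetrabut, and compound 6 cyclohexil. In compounds 4 and 6 a methylene bridge joins both phenols, which carry methyl groups and, besides, tert-butyl groups in compound 4 or cyclohexyl groups in compound 6, whereas compound 5 has an ethylidene bridge and rings with tert-butyl groups alone. Exposure lasted 24 h, shorter than in the study's cytotoxicity assay that gave the IC50 values. Each group had 2 replicates. The labels number these day 1 and day 2 and do not say whether they were separate cultures, so the p-values measure the spread between these samples, which may be technical.

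An origin is licensed when the origin recognition complex, CDC6, and CDT1 load MCM2 to MCM7 as a ring-shaped hexamer onto DNA, which happens from late mitosis through G1. Each ring stays inactive until S phase, when the kinases CDC7 and CDK2, MCM10, CDC45, and the GINS complex turn it into a working helicase. Geminin binds CDT1 in S phase and G2 and so prevents a second loading, and most of these genes are known targets of E2F transcription factors. In quiescent hepatocytes licensing factors are scarce, and they return when liver cells proliferate.

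Promoter sequences are shown here because E2F sites are the feature these genes are best known to share. RefSeq windows (GRCh38.p14, 250 bases before to 50 after a transcription start) were at hand for 8 of the 10 genes, all but MCM4 and MCM5. They were searched on both strands for the E2F words TTTCCCGC, TTTCGCGC, TTTGCCGC, and TTTGGCGC, which can overlap one another. A word was found for 7 of these 8 genes, all but MCM10, in 7 of their 11 windows, against 3.31% of all 35116 windows. The word CCAAT was found for 6 of the 8 genes, in 8 of the 11 windows, against 34.6% of all windows. TTTGAA, the core of the cell cycle homology region of G2 and mitosis genes, was found in none of the 11 windows, against 15.2% of all. These matches describe the letters of the windows and are not evidence of binding. The stretches of 80 bases below are written 5′ to 3′ on the strand of the gene, with the E2F words in capitals. MCM6 (chr2:135876519-135876598, minus strand) has 4 overlapping matches in 2 blocks, MCM3 (chr6:52284873-52284952, minus strand) has the match shown at positions -174 to -167 from its start and a second one, TTTCGCGC at -4 to 4, outside the stretch, and GMNN (chr6:24775297-24775376, plus strand) has a match at -80 to -73 in 1 of its windows. The GMNN stretch lies before that RefSeq start but inside the gene as annotated in GENCODE 29, which begins at 24774931.
MCM6: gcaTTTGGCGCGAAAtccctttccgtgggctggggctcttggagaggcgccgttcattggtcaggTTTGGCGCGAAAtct
MCM3: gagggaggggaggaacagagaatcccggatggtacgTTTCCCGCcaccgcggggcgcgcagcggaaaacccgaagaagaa
GMNN: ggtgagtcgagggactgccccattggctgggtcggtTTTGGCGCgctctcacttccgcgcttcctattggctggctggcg
The matches of MCM7 (-187 to -180 and -9 to -2) and CDT1 (-35 to -28) lie before the RefSeq start but inside the first exon of longer GENCODE 29 transcripts, and those of MCM2 (3 to 14) and CDC6 (8 to 15) lie just after the start, so these stretches are not printed.

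Library totals ranged from 9472261 to 13308975 estimated counts, so that a floor of 3 counts, for counting error only, equalled 0.234 to 0.313 CPM (counts per 1000000 counts of the TMM-adjusted library total, the scale of all CPM values here). The 10 genes were far above this floor, with between 197 counts (MCM10, compound 6, replicate 2) and 5342 counts (MCM7, DMSO, replicate 2) per library. Replicates differed by more than sampling noise in every group, and none was counted as a duplicate. All 10 hepatocyte markers examined were detected in these liver cancer cells.

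The first question was whether licensing transcripts differed between cells exposed to a compound and DMSO cells. All 6 subunits of the ring and GMNN were called lower with compounds 4 and 5, and CDT1 was called with none of the compounds. With compound 4, 8 of the 10 genes were called lower at an adjusted p under 0.05 in the quasi-likelihood test of edgeR, against 5.42% of all genes tested (11.9% in either direction). With compound 5, 8 genes were also called lower, against 14.2% of all genes (28.1% in either direction). With compound 6 the number was 3, namely MCM2, MCM4, and GMNN, against 1.6% of all genes (4.4% in either direction). None of the 10 was called higher. The median log2 fold change over the 10 genes was -0.60, -0.76, and -0.53 for compounds 4, 5, and 6, against 0.00, -0.03, and 0.00 over all genes tested. For compound 6 this median was -0.75 without its replicate 1 and -0.33 without its replicate 2. Both treated libraries lay below both DMSO libraries for 10 genes with compound 4 (27.1% of all genes), for 9 with compound 5 (37.3%), and for 9 with compound 6 (26.6%). The exceptions were CDT1 with compound 5 and MCM10 with compound 6. The 3 comparisons share the DMSO libraries and are therefore not independent. A smaller share of cells in late G1 and S phase and less RNA per cell cannot be told apart in bulk samples.

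Leaving out a library changed these counts, and the share of all genes called in either direction changed as well. For compound 4 the count was 2 without DMSO replicate 1 (4.95% of all genes), 0 without DMSO replicate 2 (2.50%), and 5 without compound 4 replicate 2 or either replicate of compound 5 (10.04%, 9.30%, and 9.47%), while the median fold change of the 10 genes stayed between -0.62 and -0.58. For compound 5 it was 5 without either DMSO replicate (12.6% and 14.97%) or without compound 5 replicate 1 (12.5%). For compound 6 it was 0 without DMSO replicate 1 (0.671%), DMSO replicate 2 (0.0075%), or compound 6 replicate 2 (0.366%), settings in which few genes of any kind were called. It was 9 without compound 6 replicate 1 (7.47%) and 7 without either replicate of compound 4 (8.13% and 8.18%), and DESeq2 called 7 genes (5.29%) in place of 3.

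**Figure D1:**
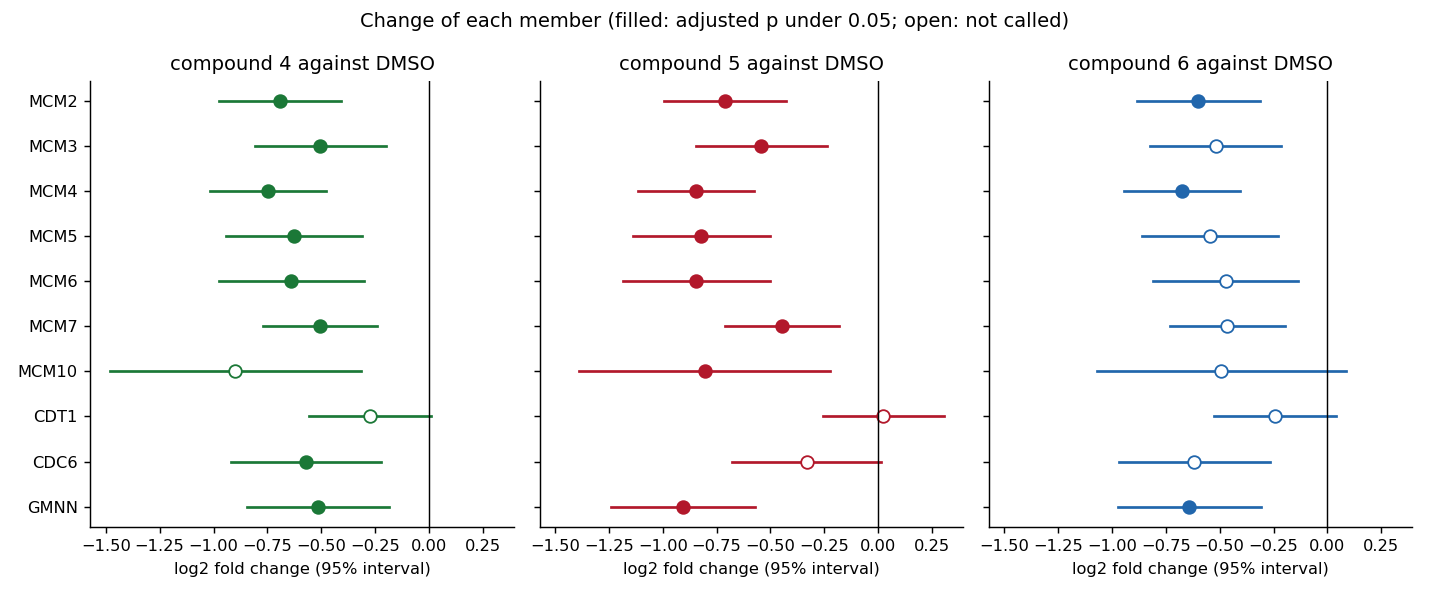
Log2 fold change of each of the 10 genes against DMSO (x axis) for compounds 4, 5, and 6, with bars for the 95% interval from the edgeR fit and filled points for an adjusted p under 0.05. All points but CDT1 with compound 5 lie below 0, between -0.90 and -0.24.

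MCM2 (ENSG00000073111, chromosome 3), whose amino-terminal tail binds histones and which forms the DNA entry gate of the ring with MCM5, measured 248 and 256 CPM for DMSO, 151 and 160.3 for compound 4, 136 and 171 for compound 5, and 181 and 152 for compound 6. All 6 treated libraries were below both controls. MCM2 fell by 0.69 on the log2 scale with compound 4 (SE 0.13, adjusted p = 0.0072), by 0.71 with compound 5 (SE 0.13, adjusted p = 0.0029), and by 0.60 with compound 6 (SE 0.13, adjusted p = 0.0298). The mean with compound 4 was 61.9% of the DMSO level in this fit.

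MCM5 (ENSG00000100297, chromosome 22), the other side of the gate, measured 286 and 282 CPM for DMSO, 179 and 189 for compound 4, 146 and 175 for compound 5, and 224 and 166 for compound 6. The treated libraries were again all below the controls, with the highest value in replicate 1 of compound 6. MCM5 fell by 0.63 with compound 4 (SE 0.14, adjusted p = 0.0179) and by 0.82 with compound 5 (SE 0.14, adjusted p = 0.0025). With compound 6 the log2 fold change was -0.54 (SE 0.14, 95% interval -0.86 to -0.23, adjusted p = 0.0595), which was not called.

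MCM3 (ENSG00000112118, chromosome 6), the subunit through which the ring contacts the origin recognition complex and CDC6 during loading, measured 338 and 339.6 CPM for DMSO, 246 and 232 for compound 4, 233 and 233 for compound 5, and 276 and 198 for compound 6. It varied least between the replicates of DMSO and of compound 5, and all treated values were below the controls. MCM3 fell by 0.50 with compound 4 (SE 0.14, adjusted p = 0.0379) and by 0.54 with compound 5 (SE 0.14, adjusted p = 0.0149), whereas the log2 fold change of -0.52 with compound 6 was not called (SE 0.14, adjusted p = 0.0616).

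MCM4 (ENSG00000104738, chromosome 8), MCM6 (ENSG00000076003, chromosome 2), and MCM7 (ENSG00000166508, chromosome 7) form a subcomplex that unwinds DNA by itself in vitro. MCM4, a main substrate of CDC7, measured 261 and 277 CPM for DMSO, 159.7 and 160.5 for compound 4, 139 and 159.8 for compound 5, and 187 and 150.7 for compound 6. Its groups did not overlap with DMSO, and it had the lowest adjusted p of the 10 genes in each comparison with DMSO. MCM4 was called lower with all 3 compounds, at a log2 fold change of -0.75 for compound 4 (SE 0.12, adjusted p = 0.0036), -0.85 for compound 5 (SE 0.12, adjusted p = 0.00087), and -0.67 for compound 6 (SE 0.12, adjusted p = 0.0155).

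MCM6 measured 78.8 and 81.4 CPM for DMSO, 55.1 and 47.8 for compound 4, 41.9 and 47.3 for compound 5, and 67.5 and 48.3 for compound 6. Replicate 1 of compound 6 was nearest to the controls but did not reach them. MCM6 fell by 0.64 with compound 4 (SE 0.15, adjusted p = 0.0216) and by 0.84 with compound 5 (SE 0.15, adjusted p = 0.0030). With compound 6 the log2 fold change was -0.47 (SE 0.15, 95% interval -0.81 to -0.14, adjusted p = 0.109).

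MCM7 measured 435 and 439 CPM for DMSO, 293 and 323 for compound 4, 299.8 and 342 for compound 5, and 348 and 286 for compound 6. All treated libraries were below the controls, the nearest being replicate 1 of compound 6. MCM7 fell by 0.51 with compound 4 (SE 0.12, adjusted p = 0.0215) and by 0.45 with compound 5 (SE 0.12, adjusted p = 0.0194), and its log2 fold change was -0.46 with compound 6 (SE 0.12, adjusted p = 0.057). An intron of MCM7 hosts the microRNAs MIR25, MIR93, and MIR106B on the same strand, and AP4M1 overlaps its start on the opposite strand, as TPRA1 does for MCM2, whose far end overlaps the antisense gene AC023593.1. The libraries were strand-specific.

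**Figure D2:**
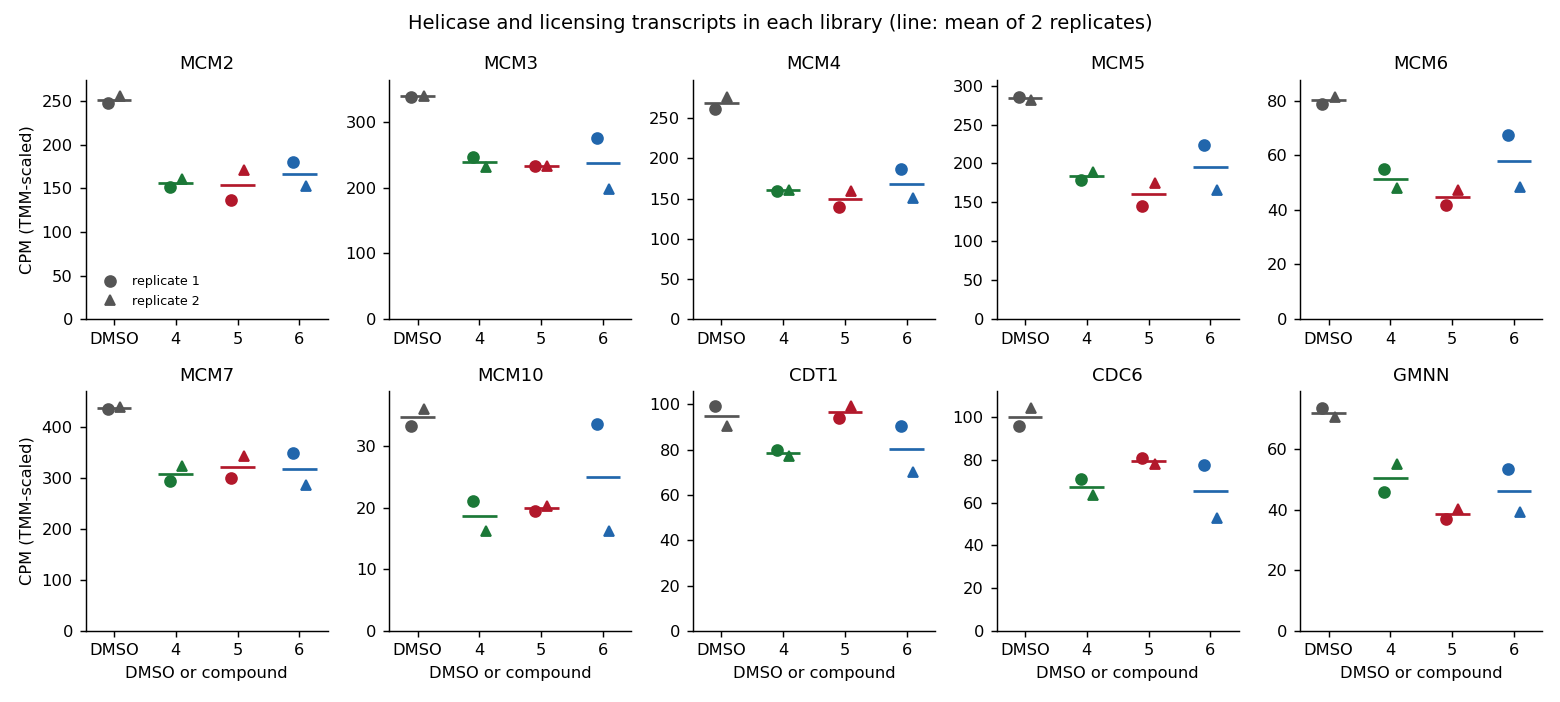
CPM scaled by TMM (y axis, from 0, a separate scale for each gene) of the 10 genes in every library, with circles for replicate 1, triangles for replicate 2, and a line at the mean of 2 replicates. For MCM2 to MCM7 all 6 treated libraries lie below both DMSO libraries, and in compound 6 the circle lies above the triangle for every gene.

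MCM10 (ENSG00000065328, chromosome 10), which joins the loaded helicase and is needed to set it in motion, measured 33.4 and 36.1 CPM for DMSO, 21.0 and 16.3 for compound 4, 19.5 and 20.3 for compound 5, and 33.7 and 16.2 for compound 6. Replicate 1 of compound 6 lay between the DMSO values, and replicate 2 was the lowest of all libraries. MCM10 fell by 0.80 with compound 5 (SE 0.26, adjusted p = 0.0432), a call that was lost without either DMSO or either compound 5 replicate (adjusted p from 0.118 to 0.182) and in a blocked fit in which the replicate numbers of compound 4 were crossed (0.0557). The log2 fold change was -0.90 with compound 4 (SE 0.26, 95% interval -1.48 to -0.31, adjusted p = 0.0513) and -0.49 with compound 6 (SE 0.26, 95% interval -1.07 to 0.09, adjusted p = 0.330), and neither was called. With compound 4 the value also sat at the threshold, since DESeq2 gave an adjusted p of 0.0136 and the fit with the replicate number as a block gave 0.0415. With compound 6 the log2 fold change was -1.07 without replicate 1 and -0.04 without replicate 2.

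CDC6 (ENSG00000094804, chromosome 17), the ATPase that joins the origin recognition complex and recruits the helicase, measured 95.8 and 104 CPM for DMSO, 71.1 and 63.7 for compound 4, 80.9 and 77.95 for compound 5, and 77.8 and 52.9 for compound 6. All treated libraries were below the controls, and those of compound 5 were the highest on average. CDC6 fell by 0.57 with compound 4 (SE 0.16, adjusted p = 0.0402). This call depended on the fit, and was lost, among other settings, in the blocked fit with the replicate numbers of compound 4 crossed (adjusted p = 0.0525). Without a replicate this fold change ranged from -0.65 to -0.48. The log2 fold change was -0.33 with compound 5 (SE 0.16, 95% interval -0.68 to 0.01, adjusted p = 0.135) and -0.62 with compound 6 (SE 0.16, 95% interval -0.97 to -0.27, adjusted p = 0.0548). In an edgeR fit of only the groups compared, CDC6 was called lower with compound 5 (-0.31, adjusted p = 0.0176), where 39.5% of all genes were called.

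CDT1 (ENSG00000167513, chromosome 16), which carries the MCM ring to the origin and is degraded once S phase begins, measured 99.2 and 90.7 CPM for DMSO, 79.95 and 77.2 for compound 4, 93.8 and 99.1 for compound 5, and 90.5 and 70.1 for compound 6. With compound 5 both libraries lay within the DMSO range, and replicate 1 of compound 6 lay just under it. CDT1 was called in no comparison with DMSO. The log2 fold change was -0.27 with compound 4 (SE 0.13, 95% interval -0.56 to 0.01, adjusted p = 0.202), 0.02 with compound 5 (SE 0.13, 95% interval -0.26 to 0.31, adjusted p = 0.908), and -0.24 with compound 6 (SE 0.13, 95% interval -0.53 to 0.04, adjusted p = 0.327). With compound 5 its sign turned under upper-quartile scaling (-0.063) and library size alone (-0.081), settings that moved the median of all genes to -0.12 and -0.14. Of its 31-base words, 7.23% also occur in transcripts of other genes, the highest share among the 10 genes.

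GMNN (ENSG00000112312, chromosome 6) measured 73.4 and 70.5 CPM for DMSO, 45.7 and 54.99 for compound 4, 36.8 and 40.1 for compound 5, and 53.3 and 39.3 for compound 6. Every treated library was below both controls, and the values with compound 5 were below both values with compound 4. GMNN fell by 0.90 with compound 5 (SE 0.15, adjusted p = 0.0019), its mean there being 53.4% of the DMSO level in the fit. It also fell by 0.51 with compound 4 (SE 0.15, adjusted p = 0.048) and by 0.64 with compound 6 (SE 0.15, adjusted p = 0.0399). The calls with compounds 4 and 6 depended on the fit, and were lost with the replicate block, among other settings, at an adjusted p of 0.066 and 0.0576. Without a replicate the log2 fold change of GMNN ranged from -0.64 to -0.39 with compound 4 and from -0.85 to -0.42 with compound 6.

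Since geminin is the inhibitor of CDT1, both transcripts were set against each other within each library, which does not depend on scaling. The ratio of CDT1 to GMNN counts was 1.35 and 1.29 for DMSO, 1.75 and 1.40 for compound 4, 2.55 and 2.47 for compound 5, and 1.70 and 1.78 for compound 6. All treated libraries were above both controls, and those of compound 5 were above all others. On the log2 scale the mean ratio was 0.40 ± 0.05 in DMSO cells, 0.65 ± 0.23 under compound 4, 1.33 ± 0.03 under compound 5, and 0.80 ± 0.05 under compound 6 (mean ± SD, n = 2), which put the compounds 0.25, 0.93, and 0.40 above DMSO. For compound 4 this difference was 0.091 without its replicate 1 and 0.41 without its replicate 2. A permutation test of 2 libraries against 2 cannot give a p below 0.333, so none was run. These are ratios of transcripts and not of proteins, and both proteins are known to be controlled by degradation.

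**Figure D3:**
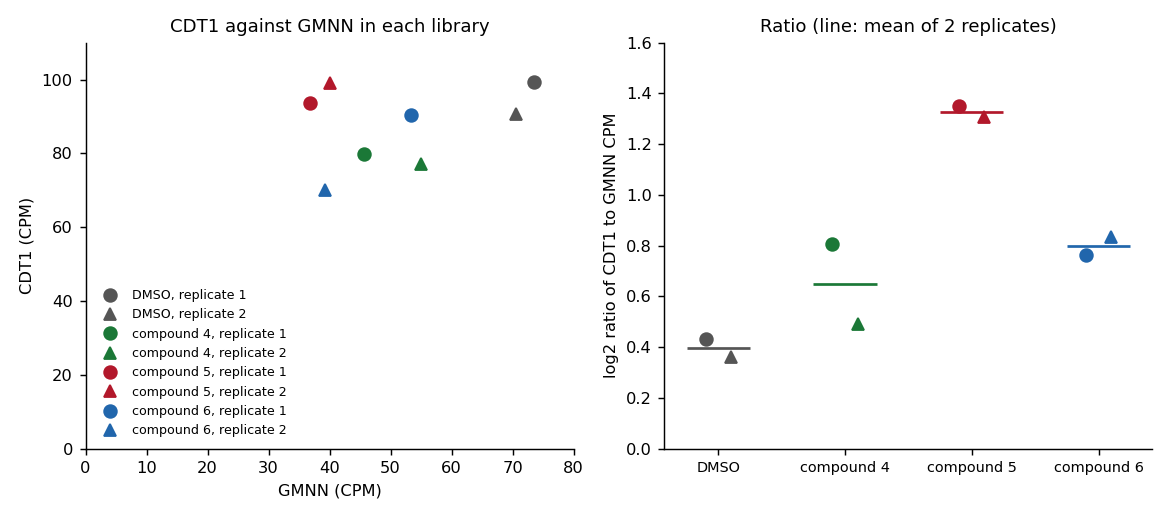
Left, CDT1 against GMNN, both in CPM, in each of the 8 libraries, and right, the log2 ratio of CDT1 to GMNN with a line at the mean of 2 replicates. Compound 5 stands apart at 1.35 and 1.31 on the log2 scale, against 0.43 and 0.36 with DMSO.

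In compound 6 all 10 genes were lower in replicate 2 than in replicate 1, with a median log2 difference of -0.44 and a range from -1.05 (MCM10) to -0.25 (MCM2). Over all genes tested in compound 6 the median difference was 0.00 and 49.8% were lower in replicate 2. The gap was not particular to the licensing genes, since 12 of 12 G2 and mitosis genes and 12 of 13 helicase activation genes were also lower in replicate 2, with median differences of -0.39 and -0.40. The median over the 10 genes was 0.03 between the DMSO replicates, -0.02 with compound 4, and 0.15 with compound 5. As a percentage of the DMSO mean, the median of the 10 genes was 65.2 in both replicates of compound 4, 55.2 and 64.9 in those of compound 5, and 79.2 and 58.5 in those of compound 6. The lowest gene was MCM4 (59.4) and MCM10 (46.9) in the replicates of compound 4, GMNN in both of compound 5 (51.1 and 55.7), and MCM4 (69.4) and MCM10 (46.7) with compound 6. The log2 fold changes of compound 6 against DMSO moved with the library left out. Without its replicate 1 they were -0.75 for MCM3, -0.75 for MCM5, -0.70 for MCM6, -0.89 for CDC6, -0.41 for CDT1, and -0.85 for GMNN. Without its replicate 2 the same genes gave -0.29, -0.33, -0.24, -0.35, -0.060, and -0.42. What sets the replicates of compound 6 apart was not tested.

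**Figure D4:**
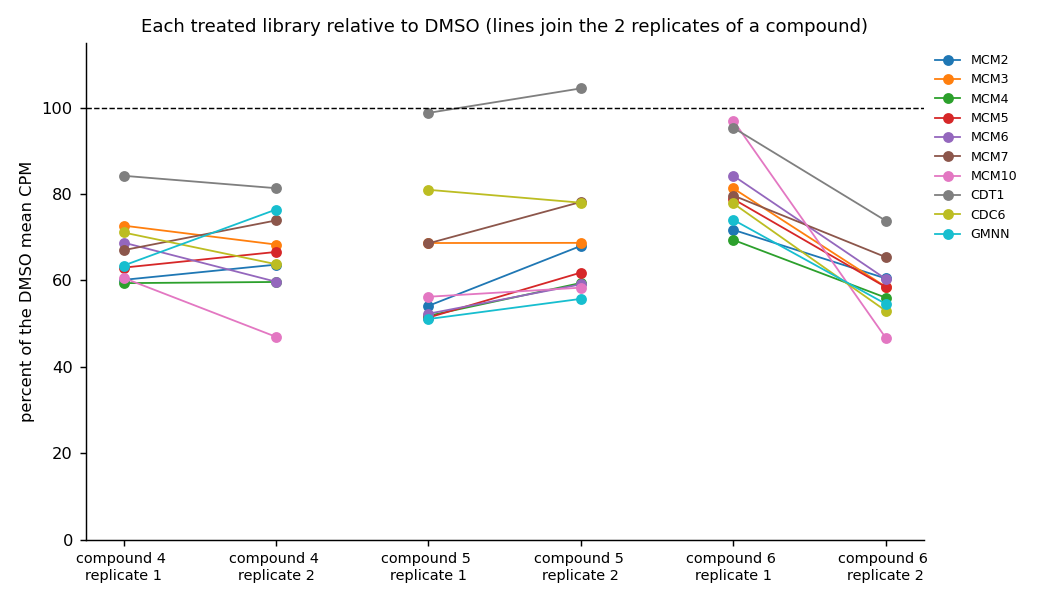
Level of each of the 10 genes as a percentage of its DMSO mean (y axis, from 0) in each treated library, with lines joining both replicates of a compound and a dashed line at 100. The lines of compound 6 all run down from replicate 1 to replicate 2, and CDT1 lies at 98.8 and 104 with compound 5.

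The second question was whether the compounds differed from each other, each at its own IC50. Over the 10 genes and 3 pairs of compounds, 30 differences were tested, with p-values adjusted over all genes of each comparison. edgeR called 0 of the 10 genes between compounds 4 and 6, 0 between compounds 5 and 4, and 0 between compounds 5 and 6, against 0.0448%, 13.9%, and 9.91% of all genes, and DESeq2 called none either. At an unadjusted p under 0.05 the numbers were 0, 2, and 1, against 9.81%, 32.0%, and 27.5% of all genes. The 95% intervals reached a median of 0.31 to either side on the log2 scale.

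Compounds 4 and 6, which share the methylene bridge and differ in the tert-butyl or cyclohexyl group, gave overlapping values for all 10 genes, whereas 17.7% of all genes were lower and 18.8% higher with compound 4 without overlap. The replicates of compound 6 lay apart, with a median log2 difference of -0.44 over the 10 genes, which widened the range that compound 4 could overlap. The difference between the compounds (compound 4 minus compound 6) ranged from -0.41 for MCM10 (95% interval -1.001 to 0.19) to 0.13 for GMNN (95% interval -0.21 to 0.46). For the ring subunits it was between -0.17 for MCM6 (95% interval -0.51 to 0.17) and 0.01 for MCM3 (95% interval -0.29 to 0.32). Compound 5 against compound 4, which differ in the bridge and the ring substituents, gave the lowest unadjusted p-values for the regulators of loading. GMNN was lower with compound 5 by a log2 difference of -0.39 (95% interval -0.72 to -0.05, adjusted p = 0.108), and CDT1 was higher by 0.30 (95% interval 0.01 to 0.58, adjusted p = 0.140). CDC6 differed by 0.24 in the same direction as CDT1 (95% interval -0.11 to 0.59, adjusted p = 0.322). The libraries of both compounds did not overlap for GMNN, MCM5, and MCM6 (lower with compound 5, 3 of 10 genes beside 31.8% of all genes) or for CDT1 and CDC6 (higher, 2 of 10 beside 28.3% of all genes). Both shares of the 10 genes were no larger than those of all genes.

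Between compounds 5 and 6 the difference of MCM6 was -0.37 (95% interval -0.71 to -0.03, adjusted p = 0.153), and that of MCM5 was -0.28 (95% interval -0.59 to 0.04, adjusted p = 0.242). MCM2, MCM3, and MCM7 differed by -0.11, -0.02, and 0.02, with intervals from -0.40 to 0.17, from -0.33 to 0.28, and from -0.25 to 0.28. CDT1 and CDC6 differed the other way, by 0.27 (95% interval -0.02 to 0.55, adjusted p = 0.207) and 0.29 (95% interval -0.07 to 0.64, adjusted p = 0.275), and MCM4, MCM10, and GMNN by -0.17, -0.31, and -0.26 (adjusted p = 0.401, 0.495, and 0.299). The libraries did not overlap for MCM6 (lower, 1 of 10 genes beside 30.2% of all genes) or for CDT1 and CDC6 (higher, 2 of 10 beside 28.5%). Without compound 6 replicate 2, MCM10 (-0.74, adjusted p = 0.0408) and MCM6 (-0.58, adjusted p = 0.0425) were called lower with compound 5 (2 of 10 genes beside 7.58% of all genes in either direction), and without compound 4 replicate 1 GMNN was called lower with compound 5 than with compound 4 (-0.52, adjusted p = 0.0444, 1 of 10 beside 20.2%).

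Levels of different genes were compared per kilobase of transcript, with the median length of a gene's protein-coding transcripts in GENCODE 29. In DMSO cells MCM5 had the highest level, 181 CPM per kb, followed by MCM7 (148), MCM2 (142), and MCM3 (109.96), while MCM6 (21.4) and MCM10 (9.02) had the lowest. The order at the top rests on the length chosen, since these medians include short partial transcripts. With the union of exons or the longest coding transcript MCM7 came first (99.7 and 142 CPM per kb), and MCM10 remained last in both. MCM6 was the lowest subunit of the ring under all 3 lengths, at 19.5 CPM per kb with the union of exons.

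As a share of the summed per-length level of the 6 subunits, MCM7 was 21.4% and 21.3% for DMSO, 22.2% and 23.6% for compound 4, 25.02% and 24.8% for compound 5, and 22.1% and 23.2% for compound 6. All treated libraries were above the controls. The share of MCM5 was 26.4% and 25.7% with DMSO against 22.9% and 23.96% with compound 5, and that of MCM4 was 12.8% and 13.4% with DMSO and between 11.6% and 12.2% in the treated libraries. With the union of exons the share of MCM5 was 11.5% and 11.2% for DMSO against 9.47% and 10.2% for compound 5, and with the longest coding transcript it was 16.9% and 16.4% against 14.1% and 14.99%. The share of MCM7 was above both controls in every treated library under these lengths too. These shares follow from the unequal decreases given above and were not tested.

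The next genes of the pathway were taken from lists written with earlier results of these data known, so their counts describe these libraries. Of the 13 helicase activation genes, whose products turn the loaded ring into a moving helicase, 9 were called lower with compound 4, 6 with compound 5, and 1 with compound 6, beside 5.42%, 14.2%, and 1.6% of all genes, with median log2 fold changes of -0.60, -0.47, and -0.52 and none called higher. TICRR, which recruits factors to the helicase at the start of S phase, fell by 1.42 with compound 4 (adjusted p = 0.0029), by 0.94 for compound 5 (adjusted p = 0.0091), and by 0.88 for compound 6 (adjusted p = 0.0462). MTBP, its partner, fell by 1.04 with compound 4 (adjusted p = 0.0080) and was not called for compound 5 (-0.21, adjusted p = 0.434) or compound 6 (-0.55, adjusted p = 0.135). GINS2 and GINS1, subunits of the GINS complex, fell by 1.13 and 1.08 with compound 5 (adjusted p = 0.0039 and 0.0045) and by 0.92 and 0.74 with compound 4 (adjusted p = 0.0197 and 0.0436), and neither was called for compound 6 (-0.74 and -0.77, adjusted p = 0.0779 and 0.0673).

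Of the 7 origin recognition genes, 1 (for compound 4), 2 (for compound 5), and 0 (for compound 6) passed the test, beside 11.9%, 28.1%, and 4.4% of all genes in either direction, and the medians were -0.25, -0.21, and -0.25 with compounds 4, 5, and 6. ORC3 fell by 0.70 with compound 4 (adjusted p = 0.0108) and by 0.63 with compound 5 (adjusted p = 0.0085). LRWD1, which tethers the complex to chromatin, rose by 0.43 with compound 5 (adjusted p = 0.0249). No other gene of the 7 was called by edgeR with compounds 4 and 5, and none with compound 6.

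Of the licensing modulators, 15 of 16 passed the filter, and 8 were called lower with compound 4, 8 with compound 5, and 4 with compound 6, beside 5.42%, 14.2%, and 1.6% of all genes, with medians of -0.49, -0.45, and -0.33, and 1 was called higher with compound 5. SKP2, a ubiquitin ligase subunit that targets CDT1, fell by 1.03 with compound 4 (adjusted p = 0.0037), by 0.84 for compound 5 (adjusted p = 0.0046), and by 0.88 for compound 6 (adjusted p = 0.0189). CCNA2, the cyclin that drives CDK2 in S phase, fell by 1.22 with compound 4 (adjusted p = 0.0016), by 0.97 for compound 5 (adjusted p = 0.0020), and by 0.69 for compound 6 (adjusted p = 0.0403). UHRF1, which maintains DNA methylation behind the fork, fell by 1.13 with compound 5 (adjusted p = 0.00043), and also fell by 0.81 for compound 4 (adjusted p = 0.0051) and fell by 0.74 for compound 6 (adjusted p = 0.0183).

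Another list held 16 genes of the E2F family, their DP partners, the pocket proteins, and the G1 cyclins CCND1, CCNE1, and CCNE2, the last 3 called with none of the compounds. Of the 16, 5 were called lower with compound 4, 7 with compound 5, and 1 with compound 6, beside 5.42%, 14.2%, and 1.6% of all genes, with medians of -0.27, -0.34, and -0.25 and none called higher. E2F7, a repressor of the E2F family, fell by 1.55, 1.40, and 1.01 with compounds 4, 5, and 6 (adjusted p = 0.0029, 0.0021, and 0.0382). E2F8, a related repressor, was called lower with compound 4 (log2 fold change -1.17, adjusted p = 0.0325) and with compound 5 (-1.36, adjusted p = 0.0094), and was not called for compound 6 (-0.79, adjusted p = 0.175).

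Transcripts of G2 and mitosis mark cycling cells. Of 12 such genes 11 were called lower with compound 4, 10 with compound 5, and 9 with compound 6, beside 5.42%, 14.2%, and 1.6% of all genes, with medians of -0.996, -0.70, and -0.68. CENPA was called with none of the compounds, MKI67 only with compound 4, and CDC20 with compounds 4 and 5. TOP2A, the topoisomerase that untangles sister chromatids, fell by 1.47 with compound 4 (adjusted p = 0.00034), by 0.72 for compound 5 (adjusted p = 0.0042), and by 0.79 for compound 6 (adjusted p = 0.0144). MKI67, the antigen Ki-67, fell by 1.28 with compound 4 (adjusted p = 0.0159) and was called with neither other compound (-0.37 and -0.58, adjusted p = 0.343 and 0.281). CDK1 and BIRC5 fell by 0.93 and 0.78 with compound 5 (adjusted p = 0.0021 and 0.0057), and BIRC5 and AURKB both fell by 0.86 with compound 6 (adjusted p = 0.0176 and 0.0166). CDK1, BIRC5, and AURKB were called lower with all 3 compounds. The part of a changed share of cycling cells in the lower licensing transcripts was not tested.

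Cell type markers were counted beside all genes, of which 11.9%, 28.1%, and 4.4% were called in either direction with compounds 4, 5, and 6. The 10 hepatocyte markers summed to 39596 to 41411 CPM for DMSO, 30961 to 31067 for compound 4, 32927 to 33105 for compound 5, and 31540 to 37911 for compound 6, with 3, 3, and 2 called lower and 1 (TTR, with compound 4) called higher. TTR rose by 0.66 with compound 4 (adjusted p = 0.0365). APOA1, an apolipoprotein, fell by 0.66, 0.78, and 0.74 (adjusted p = 0.0312, 0.0076, and 0.0375). AFP, the fetal counterpart of albumin, fell by 0.63 with compound 4 (adjusted p = 0.0086) and by 0.68 for compound 5 (adjusted p = 0.0028). TF, transferrin, fell by 0.56, 0.40, and 0.55 (adjusted p = 0.0161, 0.0332, and 0.0359). Of 6 fibroblast markers, summing to at most 8.72 CPM, COL1A2, DCN, and LUM were at 0 in every library, and PDGFRB was the only one tested. It measured 2.66 and 1.64 CPM for DMSO and 8.55 and 6.32 for compound 4, where it rose (log2 fold change 1.80, adjusted p = 0.0086). Of 6 immune markers, PTPRC and CD3E were at 0, and the sum of 1890 to 3031 CPM came mainly from LYZ, which fell by 0.47 with compound 5 (adjusted p = 0.0315). CD68 rose by 0.80 with compound 4 (adjusted p = 0.0079). CD14 measured 0.94 and 1.25 CPM for compound 4, 0.46 and 0.63 for compound 5, 0.94 and 0.99 for compound 6, and 0.098 and 0.164 for DMSO, where both libraries were under the floor of 3 counts, so no fold is given. The 5 endothelial markers summed to at most 2.06 CPM, with KDR and TEK at 0. The part of these shifts in the licensing values was not tested.

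**Figure D5:**
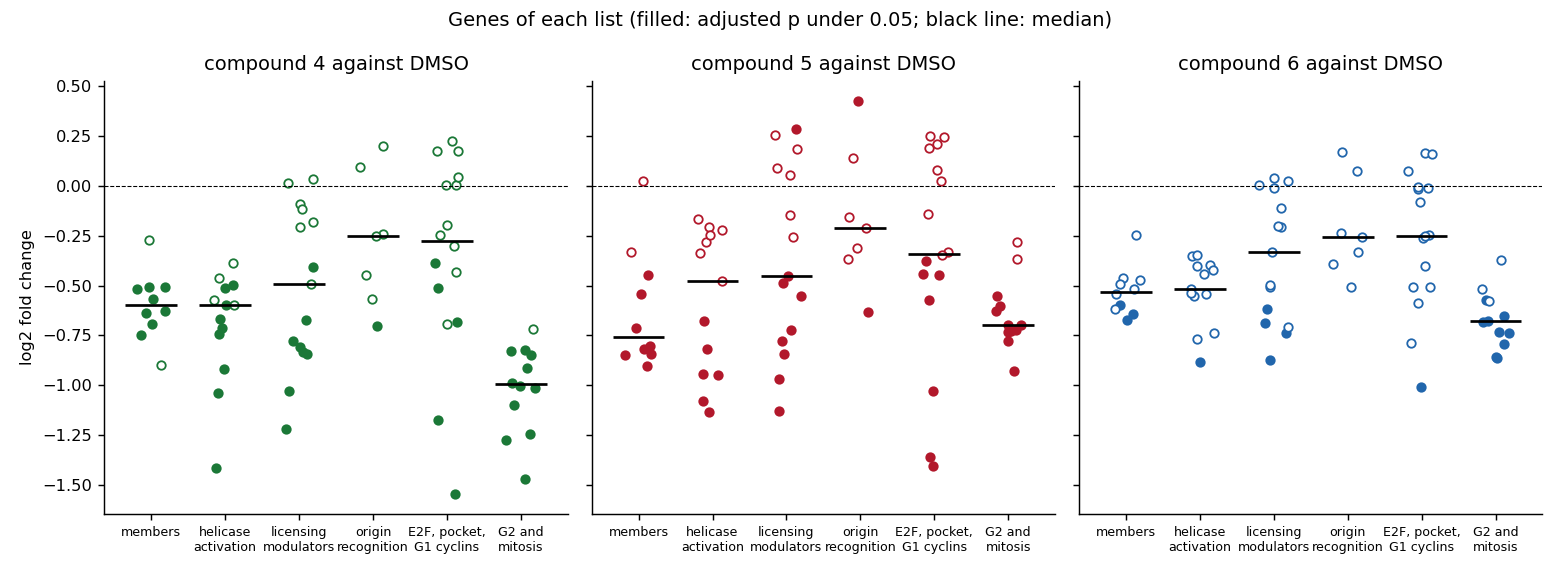
Log2 fold change against DMSO (y axis) of every tested gene of 6 lists for compounds 4, 5, and 6, with filled points for an adjusted p under 0.05 in edgeR and a black line at the median. The G2 and mitosis genes have the lowest median with compounds 4 and 6 (-0.996 and -0.68), and with compound 5 the 10 licensing genes have (-0.76).

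The 10 genes did not all follow their common pattern equally. Over the 8 libraries, Pearson's r between a gene's log2 CPM and the mean of the standardized values of all 10 was 0.98 for MCM3, 0.97 for MCM7 and MCM4, 0.87 for CDC6, 0.89 for GMNN, and 0.61 for CDT1. These values include the gene itself and, like all those over 8 libraries of 4 groups, are a description. Outside the 10, among the 9304 genes whose mean reached 10 CPM, the pattern was most like that of SAMHD1 (r = 0.991), HSDL2 (0.980), POLE3 (0.978), DSN1 (0.977), and SKP2 (0.974). SAMHD1 averaged 81.9 CPM with DMSO and 62.1, 61.8, and 64.4 with compounds 4, 5, and 6.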

How the data were processed

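RNA of 8 samples (4 groups, 2 replicates each) was sequenced from strand-specific libraries. By the column headers, replicate 1 of compounds 4 and 5 was in each case merged from 2 numbered parts. The headers do not say what these parts were. Per the submitters' processing notes and the study's methods, the authors checked reads with FastQC 0.12.0, quantified them with Salmon 1.5.0 on the GENCODE 38 transcriptome (GRCh38), and summarized them to genes with tximeta. DESeq2 1.38.3 is also named there. The deposited values are these estimated counts (expected counts), not normalized, and they were rounded to whole numbers here before testing. Salmon splits reads that fit several transcripts by a model, so genes with shared sequence are less certain.

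Tests used edgeR 4.0.16 (R 4.3.3). TMM factors were between 0.958 and 1.04, genes were kept by filterByExpr, and the quasi-likelihood F-test used all 8 samples in a fit of the 4 groups, with Benjamini-Hochberg adjustment over 13404 genes and a cutoff of 0.05. Standard errors are the log2 fold change over the square root of F, and intervals use the fit's degrees of freedom. CPM are counts scaled to a TMM-adjusted library total of 1000000. On simulated data (3 tables of 13404 genes for compound 4 against DMSO, 200 of them shifted by 1 log2 unit) 72.2% of changed genes were called, and 8.3% of calls were false. Symbols were matched for 60089 identifiers. Lengths, overlaps, and chromosomes come from GENCODE 29 (GRCh38), promoter windows from RefSeq.

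The 10 genes and all lists were chosen with earlier results of these data known. All 10 were named. From each other list the 2 called genes with the largest change per comparison were named, and the 5 genes outside the 10 with the highest correlation to their mean pattern. Alternatives were DESeq2 1.42.0, other scalings, filters, samples, and cutoffs, a replicate block, and leaving out each replicate. The crossed block and the longest transcript length were chosen after seeing the data. Cell assays of the study were not analysed here.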

Additional observations from a re-analysis of the deposited data

How the results depend on the processing

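The count of the 10 genes called against DMSO (8, 8, and 3 with compounds 4, 5, and 6) ranged from 0 to 9, from 5 to 8, and from 0 to 9 when each replicate was left out, where the lone sample is assumed to vary like the other groups. The share of all genes called then ran from 2.50% to 12.7%, from 12.5% to 33.7%, and from 0.0075% to 8.18%. At an adjusted p under 0.01 it was 2, 5, and 0 (4.41%, 13.5%, and 0.686% of all genes). For compound 5 it was 9 with only the groups compared (39.5%), CDC6 being added, beside 28.1%. For compound 6 it was 9 with no filter (6.34%), 6 with at least 10 counts in every sample (5.72%), 6 with only the groups compared (6.78%), and 7 with DESeq2 (5.29%), beside 4.4%. With the replicate block, whose numbers pair samples by label only (correlations of deviations between groups from -0.108 to 0.218), it was 8, 8, and 2 (11.6%, 27.4%, and 3.72%). The block added MCM10 with compound 4 (adjusted p = 0.0415) and took away GMNN with compounds 4 (0.066) and 6 (0.0576). The crossed block gave 7, 7, and 3 (1507, 3738, and 532 of all genes). Between compounds, 0 became at most 1 (5 and 4, 20.2% of all genes) and 2 (5 and 6, 7.58%) without a replicate. The median with compound 4 (-0.60) was -0.62 with upper-quartile scaling, -0.64 with library size only, and -0.62 to -0.58 without a replicate. Without a replicate the medians for compounds 5 (-0.76) and 6 (-0.53) ranged from -0.86 to -0.60 and from -0.75 to -0.33. The fold between the highest and lowest per-length level, 20.0, was 15.7 with the union of exons and 18.7 with the longest coding transcript, and the largest subunit share in DMSO, 26.1% (MCM5), was 29.3% and 29.4%, both of MCM7, where MCM5 held 11.4% and 16.6%. All signs against DMSO held in all settings but for CDT1 with compound 5 (-0.063 with upper-quartile scaling, -0.081 with library size, and -0.018 to 0.090 without a replicate). Differences between compounds near 0 changed sign. With other scalings, no filter, or DESeq2, they were -0.0024 for MCM3 (4 minus 6), 0.0074, 0.010, and 0.016 for MCM2 and -0.0086 and -0.0063 for MCM7 (5 minus 4), and -0.064 and -0.061 for MCM7 and 0.0016 and 0.0046 for MCM3 (5 minus 6). Without a replicate, 4 minus 6 spanned -0.21 to 0.014 for MCM2, -0.21 to 0.25 for MCM3, -0.22 to 0.068 for MCM4, -0.28 to 0.13 for MCM5, -0.39 to 0.070 for MCM6, -0.18 to 0.087 for MCM7, -0.85 to 0.18 for MCM10, -0.20 to 0.15 for CDT1, -0.21 to 0.33 for CDC6, and -0.083 to 0.34 for GMNN. 5 minus 4 spanned -0.19 to 0.16 for MCM2, -0.071 to 0.0078 for MCM3, -0.20 to 0.017 for MCM4, -0.039 to 0.17 for MCM7, and -0.070 to 0.29 for MCM10, and 5 minus 6 spanned -0.29 to 0.052 for MCM2, -0.23 to 0.23 for MCM3, -0.10 to 0.16 for MCM7, and -0.74 to 0.29 for MCM10. The cause of these changes was not tested. Depth did not limit the detection of the 10 genes, and 2 replicates a group limit the precision.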
